A study of Mus musculus with 272 samples.

Results

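The comparison described here sets the transcriptome of mouse 8-cell embryos against that of 4-cell embryos. Its members were chosen by their labels: the 4 libraries labelled 4-cell transcriptome (replicates A to D) and the 4 labelled 8-cell transcriptome (A to D), 8 of the 272 libraries of the series. Each library was made from a pool of 20 embryos with a Smart-seq2 protocol, which primes cDNA on poly(A) tails. Strain, culture conditions and hours after fertilization are not given in the sources used here, all embryos were untreated as far as the labels say, and nothing says that the 4 pools of a stage came from separate matings, so the p-values measure the spread between pools, which may be technical. The study as a whole followed 8 stages, from the germinal vesicle (GV) and metaphase II (MII) oocyte to the blastocyst, with transcriptomes (32 libraries) and with RNA from 10 fractions of sucrose gradients (3 gradients per stage).

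At this step the mouse embryo divides again, from 4 to 8 cells. Transcripts stored in the oocyte have by then largely been cleared, the burst of transcription that marks the 2-cell stage has ended, and the embryo runs on its own genome. At the end of the 8-cell stage the blastomeres flatten against each other (compaction) and acquire an apical and a basal side, which sets up the later split into the outer trophectoderm and the inner cell mass. Glucose use also rises over these stages, after a period in which pyruvate and lactate are the main fuels.

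Each value is a gene's read count per 1 M reads of its library (CPM), so it is a share of the library and not an amount per embryo, and fewer cells of a type and less RNA per cell cannot be told apart. Changes are 8-cell minus 4-cell on the log2(CPM + 1) scale, which understates the change of genes with low values. A gene was called when limma's adjusted p was under 0.05 and the change was at least 1 in size. The limma fit covered all 32 transcriptome libraries. On simulated data it called 0.346% of unchanged genes, and false calls exceeded 0.05 of its calls. Its adjusted p was thus too small there. The 4-cell libraries held 14.1 to 19.1 M reads and the 8-cell libraries 14.3 to 22.4 M. Genes at a CPM of at least 1 numbered 11143 to 11278 in 4-cell and 10714 to 11009 in 8-cell libraries. Correlations of log2(CPM + 1) across genes were 0.970 to 0.979 between libraries of a stage and 0.968 to 0.974 between the stages, so the stages stood only slightly further apart than replicates did.

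Of 14642 genes tested, 66 were called higher (0.451%) and 314 lower (2.14%) at the 8-cell stage, 2.60% in all. The changes were small: 351 of the 380 called genes changed by less than 1.5 on the log2 scale and 4 by 2 or more. Called genes were mostly of low level, since 73.7% had a mean under 10 CPM, against 55.5% of all genes tested. The median change of all genes was -0.11, and 36.5% of genes had a change above 0. This shift depends on the scaling. Under TMM scaling the median was -0.0043 and 42.5% of 273 calls were higher, and under quantile normalization it was 0.0034 and 49.8% of 269 calls were higher, against 17.4% of the 380 calls as deposited. In 1527 genes (10.4%) the 4 values of one stage lay all above the 4 of the other, 445 (3.04%) with the 8-cell values above and 1082 (7.39%) with them below. By the adjusted p alone, with no fold threshold, 329 genes were higher (2.25%) and 1078 lower (7.36%). Of the called genes, 32 higher and 206 lower ones had such separate values.

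**Figure D1:**
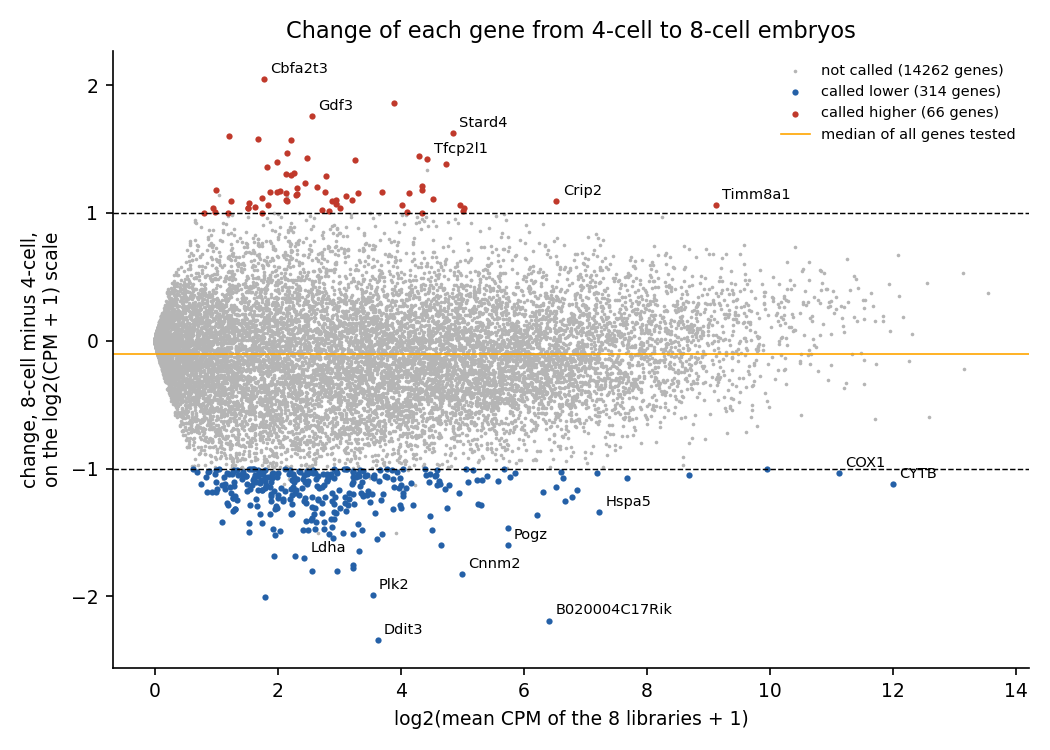
Each point is a gene, with its level over the 8 libraries, log2(mean CPM + 1), on the horizontal axis and its change from the 4-cell to the 8-cell stage on the vertical axis. Blue points are the 314 genes called lower and red points the 66 called higher, dashed lines mark a change of 1 in size, and the orange line marks the median of all genes, -0.11.

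The largest fall among all called genes was that of Ddit3, which encodes CHOP, the transcription factor that ends the stress response by promoting cell death. Ddit3 stood at 12.2, 21.5, 15.97 and 27.9 CPM in the 4-cell libraries A to D and at 3.04, 0.947, 3.06 and 5.94 CPM in the 8-cell libraries. Every 4-cell value was above every 8-cell value, and the means, 19.4 ± 6.82 and 3.25 ± 2.05 CPM (SD, n = 4), differed 5.97-fold (change -2.34, SE 0.31, limma adjusted p = 1.64e-05). Hspa5, the major chaperone of the endoplasmic reticulum (BiP) and the sensor whose release starts the unfolded protein response, stood at 178, 185, 230 and 259 CPM against 87.9, 71.3, 64.8 and 113 CPM. The groups were again separate, with a change of -1.34 (SE 0.20, limma adjusted p = 7.13e-05). Both genes were called under each of the 22 alternatives tried, which differed in scaling, filter, pseudocount, tool and libraries.

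These 2 genes belong to a list of 45 tested genes of the integrated stress response and the unfolded protein response, the pathways by which a cell slows translation and enlarges its folding capacity when proteins misfold or amino acids run short. Of the 45 genes, 4 were called lower (against 2.14% of all genes) and 0 higher. A change below 0 was found in 39. The list's median change was -0.41 against -0.11 for all genes (-0.26 against -0.0043 under TMM scaling). Without the fold threshold, 10 members were lower (against 7.36% of all genes) and 0 higher at a limma adjusted p under 0.05. The summed level of the list ran from 1826 to 2383 CPM in 4-cell libraries and from 1324 to 1519 CPM in 8-cell libraries, with no overlap. The other 2 called members were Syvn1, a ubiquitin ligase that removes misfolded proteins from the endoplasmic reticulum, and Ppp1r15a, the phosphatase subunit that ends the translation block.

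Syvn1 was at 3.35, 2.19, 3.97 and 2.94 CPM in 4-cell and at 0.830, 0.271, 1.38 and 1.15 CPM in 8-cell libraries (change -1.13, SE 0.24, limma adjusted p = 0.003). The groups did not overlap, and without 8-cell replicate B the change was -0.95. Ppp1r15a overlapped, at 58.6, 30.9, 19.9 and 32.6 CPM against 37.3, 14.1, 8.88 and 9.29 CPM. Its change was -1.13 (limma adjusted p = 0.0125), and -0.86, -0.91 and -0.93 without 4-cell replicate A, 8-cell replicate C or 8-cell replicate D, under the threshold in size. Dnajb9, a cochaperone of BiP, stood at 212 to 243 CPM in 4-cell and 113 to 141 CPM in 8-cell libraries, with no overlap, and missed the fold threshold (change -0.85, limma adjusted p = 0.00321). Another 3 members that were not called had changes close to that of Dnajb9: Derl3 -0.91 (limma adjusted p = 0.106), Ero1a -0.89 (0.0736) and Ero1b -0.84 (0.0332).

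Hspa5 and Syvn1 share a promoter feature, which was looked up after their values were seen. The endoplasmic reticulum stress element, spelled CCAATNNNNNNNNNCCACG and searched on both strands, is the site through which ATF6 and NF-Y act on chaperone genes. It occurred in 39 of 32851 RefSeq promoter windows (0.119%), which run from 250 bases before to 50 bases after the start site. Of the 40 genes of the stress list that have such a window, 10 held it. The list is made of genes of the response that this element serves, so that share was largely set by the choice of list. Of the 282 called genes with a window, 3 held the element. The 4 windows below are those of the called members Hspa5 and Syvn1 and of Calr and Ero1b, 2 members with the element that were not called and whose 4-cell and 8-cell values did not overlap. Capitals mark the element, which in Calr and Ero1b lies on the opposite strand and therefore reads as its reverse complement. The element starts 65, 44, 162 and 201 bases before the start site. Coordinates are those of build GRCm38.p6.
Hspa5, chr2:34772010-34772058, plus strand: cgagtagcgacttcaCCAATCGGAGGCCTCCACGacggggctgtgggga
Syvn1, chr19:6046517-6046565, plus strand: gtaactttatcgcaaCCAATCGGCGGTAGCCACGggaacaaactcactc
Calr, chr8:84847060-84847108, minus strand: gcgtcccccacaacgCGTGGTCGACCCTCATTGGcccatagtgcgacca
Ero1b, chr13:12565667-12565715, plus strand: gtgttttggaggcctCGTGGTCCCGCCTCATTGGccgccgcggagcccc

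All 10 stress genes with the element had a change below 0, as did 39 of the 45 genes of the list, and 2 of the 10 were called. Calr, a calcium-binding chaperone, had a change of -0.65 (limma adjusted p = 0.0276) and Hsp90b1, the GRP94 chaperone, one of -0.70 (0.052). Dnajc3, which restrains the kinase PERK, changed by -0.53 (0.0443) and Canx, a membrane-bound chaperone, by -0.39 (0.125). Creld2 and Pdia6 had the smallest changes, -0.26 (0.528) and -0.21 (0.66). A second element, TGATGNAA, through which CHOP and ATF4 act, was in 3.97% of all windows and in 6 of the 40 stress genes, of which 0 were called. A match is a run of letters and not a measured binding site.

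Genes of the p53 response and immediate early genes also had more falls than rises, as did all genes tested. Of all genes, 2.14% were called lower and 0.451% higher, and the median change was -0.11 (-0.0043 under TMM scaling). Of 28 tested p53 targets, 3 were called lower and 0 higher, and the median change was -0.46 (-0.31 under TMM scaling). A change below 0 was found in 22 of the 28. The summed level of these 28 genes overlapped, at 1968 to 2268 CPM in 4-cell and 2008 to 2456 CPM in 8-cell libraries. Much of this sum came from Rps27l, which is also on the list of ribosomal protein genes. Rps27l had a mean of 1191 CPM over the 8 libraries and a change of 0.33, so the sum says little of the other members. Plk2, a stress-induced kinase, stood at 13.4, 16.3, 9.81 and 30.7 CPM against 4.205, 6.83, 1.29 and 2.65 CPM, with no overlap (change -1.99, SE 0.31, limma adjusted p = 0.000123). Pmaip1, which encodes the pro-apoptotic NOXA, changed by -1.26 (0.00623) with overlapping groups. Btg2, an antiproliferative gene, changed by -1.02 (0.0073). Its 4-cell values, 4.54 to 7.95 CPM, were all above its 8-cell values, 1.29 to 3.43 CPM, and its change was -0.87, -0.84 and -0.96 without 4-cell replicate D, 8-cell replicate B or 8-cell replicate C. Of 24 immediate early genes, which respond to growth factors and stress within minutes, 2 were called lower and 0 higher (median change -0.35, and -0.27 under TMM scaling). They were Gadd45g (change -1.41, limma adjusted p = 0.0173) and Nr4a2 (change -1.04, 0.0403), both with overlapping groups. Gadd45g lost its call without 4-cell replicate D (-0.96), 8-cell replicate A (-1.15) or 8-cell replicate B (-1.14). Nr4a2 lost its call in 5 of the 8 fits that left out 1 library, those without 4-cell replicates B, C or D (-1.01 to -0.99) or 8-cell replicates A (-1.06) or D (-0.56).

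**Figure D2:**
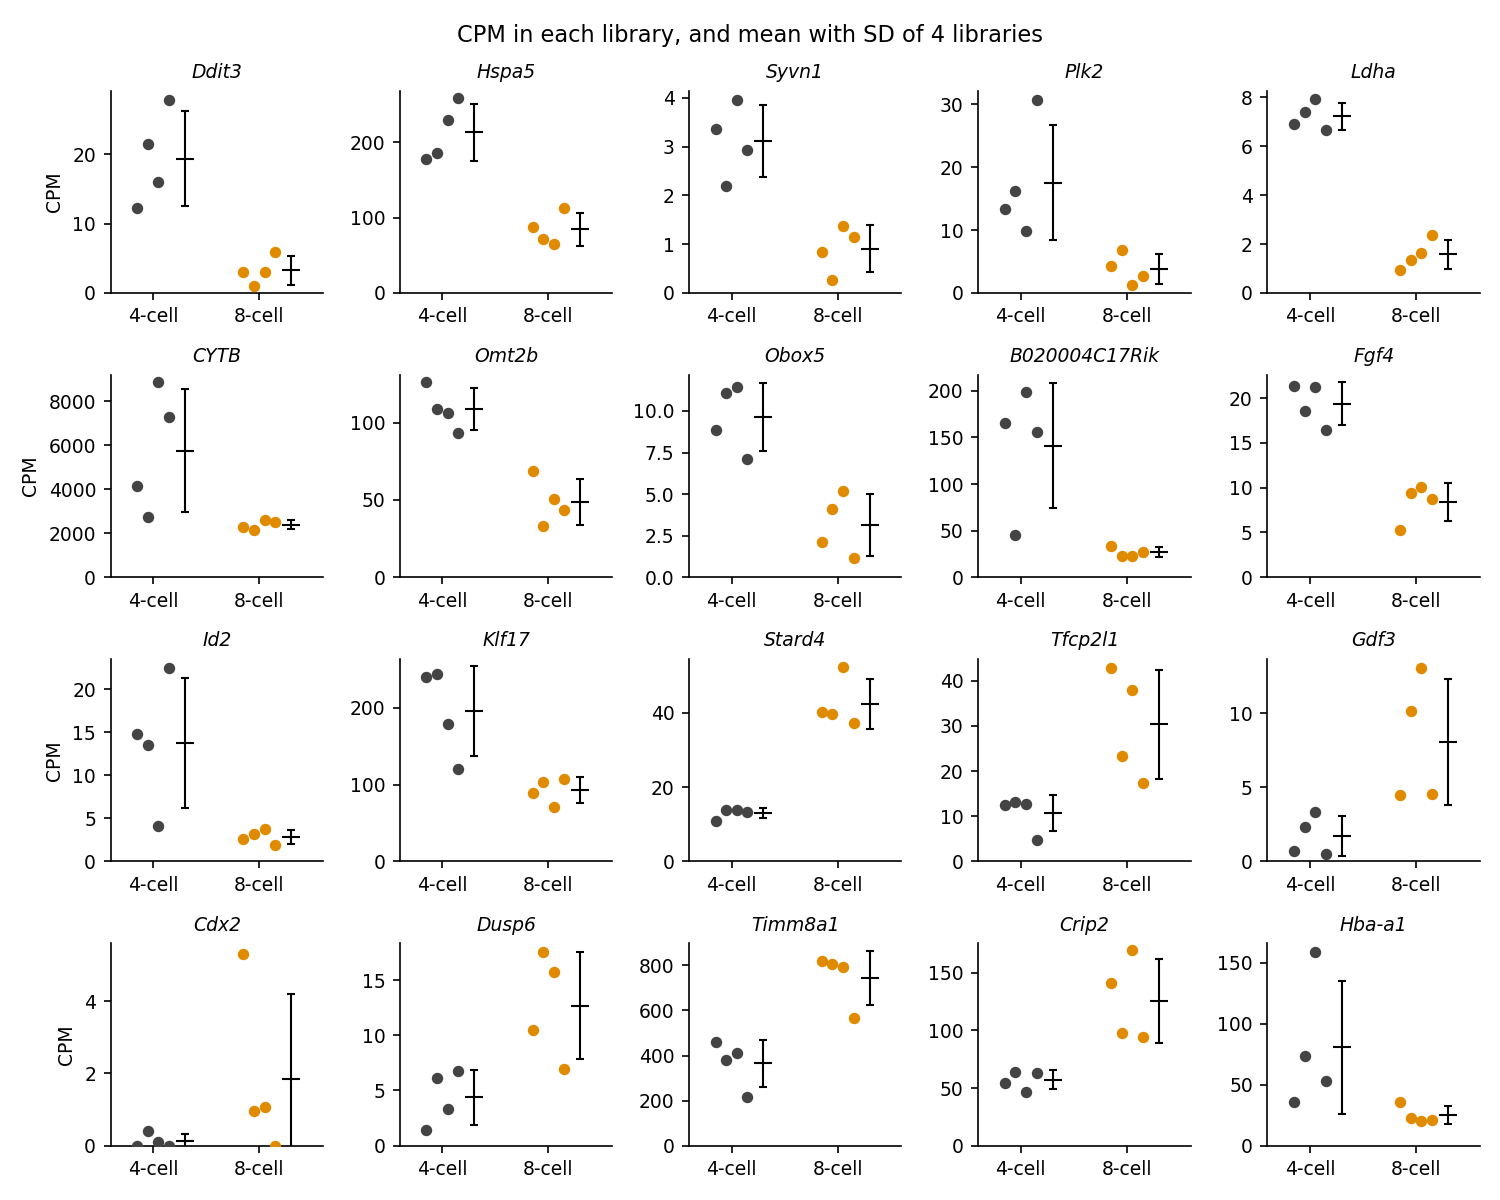
CPM of 20 genes in each of the 4 4-cell libraries (grey points, A to D from left to right) and the 4 8-cell libraries (orange), with the mean and SD beside them, drawn on linear axes that start at 0, where a bar that would pass below 0 ends. Ddit3, Hspa5 and Stard4 separate the stages in every library, whereas the Cdx2 values of 8-cell embryos run from 0 to 5.31 CPM.

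The 2 genomes that supply the respiratory chain differed in direction. The 13 protein genes of the mitochondrial genome, a list added after the values were seen, all had a change below 0, and 5 were called lower. Their median change was -0.97 (-0.81 under TMM scaling and -0.92 under quantile normalization). Their summed level was 12432, 9082, 24394 and 18190 CPM in the 4-cell libraries A to D and 7074, 7074, 8927 and 8839 CPM in the 8-cell libraries. The 8-cell libraries thus lay close together, and the 4-cell libraries were all higher but spread widely, with B only slightly above the highest 8-cell library.

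CYTB, a subunit of complex III and the most abundant called gene, stood at 4161, 2734, 8879 and 7284 CPM against 2302, 2146, 2609 and 2530 CPM (change -1.12, SE 0.26, limma adjusted p = 0.00522). The groups did not overlap. COX1, the catalytic subunit of complex IV, changed by -1.04 (0.00247), and ND2, of complex I, passed the fold threshold by a narrow margin (0.0143), both with no overlap. COX2 and COX3, of complex IV, changed by -1.28 (0.0138) and -1.10 (0.036), with overlapping groups. These 5 calls rest in part on the 2 highest 4-cell libraries: without replicate C the changes of CYTB, COX1, COX3 and ND2 were -0.87, -0.81, -0.84 and -0.73, and without replicate D those of CYTB, COX1, COX2 and COX3 were -0.96, -0.96, -0.89 and -0.95. Leaving out an 8-cell library also took COX1 (A, -0.97) and ND2 (A, -0.95, and B, -0.96) under the threshold in size, and COX3 past that of the adjusted p (A, change -1.01, and B, -1.02). Copies of mitochondrial sequence in the nuclear genome can share reads with these genes.

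Nuclear genes of the respiratory chain moved the other way by small steps. Of 76 tested members, 0 were called in either direction, 67 had a change above 0, and the median was 0.31 (0.47 under TMM scaling). At a limma adjusted p under 0.05 without the fold threshold, 11 were higher (against 2.25% of all genes) and 0 lower. Their summed level was 14567 to 16628 CPM in 4-cell libraries and 18550 to 20175 CPM in 8-cell libraries, with no overlap. Cox7b, a subunit of complex IV, stood at 25.1 to 44.0 CPM against 62.3 to 75.5 CPM (change 0.99, SE 0.23, limma adjusted p = 0.00492), and Ndufa3, of complex I, changed by 0.85 (0.0222).

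Cytosolic ribosomal protein genes behaved alike. None of 82 was called, and 78 had a change above 0. Without the fold threshold, 12 were higher (against 2.25% of all genes) and 0 lower. The median was 0.33 (0.49 under TMM scaling, 0.29 under quantile normalization). In 51 of the 82 genes all 8-cell values were above all 4-cell values, against 3.04% of all genes. Together they took 98164 to 103437 CPM of a 4-cell library and 119824 to 125283 CPM of an 8-cell library. Rpl35a had the largest change, 0.75 (SE 0.19, limma adjusted p = 0.0102), at 500 to 611 CPM against 734 to 1169 CPM, followed by Rpl22 (0.67) and Rpl26 (0.67, limma adjusted p = 0.164). Transcript length moved with the change over all genes: in 6345 genes with a mean of at least 10 CPM, the median change was 0.00079, -0.086, -0.10, -0.18 and -0.26 in 5 groups of 1267 to 1273 genes from short to long transcripts (Spearman rho -0.23 across genes), and under TMM scaling it went from 0.16 in the shortest to -0.10 in the longest. The median annotated length was 628.5 nt for ribosomal protein genes and 595.5 nt for nuclear respiratory chain genes, both within the shortest of these groups, and the part of length in their changes was not tested.

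Transcripts inherited from the oocyte continued to fall. Of 63 tested genes on the list of maternal transcripts, 11 were called lower (against 2.14% of all genes) and 0 higher. A change below 0 was found in 54. The median was -0.49 against -0.11 for all genes (-0.40 against -0.0043 under TMM scaling). Their summed level was 575 to 709 CPM in 4-cell and 388 to 481 CPM in 8-cell libraries. Omt2b, an oocyte-specific gene, stood at 126, 109, 106 and 93.2 CPM against 68.6, 33.0, 50.2 and 43.2 CPM (change -1.18, SE 0.15, limma adjusted p = 1.33e-05), with no overlap. The same gene had a mean of 11886 CPM at the 2-cell stage and 3.78 CPM in blastocysts, so the fall compared here is the tail of a far larger one. Omt2a, its neighbour in sequence, stood at 39.0 to 66.0 CPM against 12.9 to 35.9 CPM (change -1.29, limma adjusted p = 0.0006).

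The remaining called maternal genes fell by 1.01 to 1.35 on the log2 scale. Btg4, the adaptor that brings the CCR4-NOT deadenylase to maternal transcripts, stood at 9.54 to 23.2 CPM against 6.36 to 8.96 CPM (change -1.07, limma adjusted p = 0.00144). Its groups did not overlap, and its change was -0.94, -0.92 and -0.9987 without 4-cell replicate C, 4-cell replicate D or 8-cell replicate B. Tcl1, a coactivator of the kinase AKT, and its relatives Tcl1b1 and Tcl1b4 changed by -1.21, -1.35 and -1.27, and these 3 calls held in each of the 8 fits that left out 1 library, as did that of Nlrp4c (-1.28). Bcl2l10, a survival factor of the BCL2 family, Ccnb3, a B-type cyclin of meiosis, Nlrp4a and E330034G19Rik changed by -1.09, -1.01, -1.03 and -1.01. Each of these 4 lost its call in at least 2 of those fits; without 8-cell replicate C the Ccnb3 change was -0.62. Genes of the Omt2, Tcl1, Nlrp4, Obox, Pramel and Usp17 families have close copies, among which the counting could split reads.

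Several genes of the 2-cell burst fell as well. Of 39 tested members, 6 were called lower (against 2.14% of all genes) and 0 higher. A change below 0 was found in 36 (median -0.32, and -0.24 under TMM scaling). The summed level of the list overlapped, at 6107 to 8452 CPM in 4-cell and 4707 to 7496 CPM in 8-cell libraries. The called members included 4 Obox homeobox genes, a family that acts in the activation of the embryonic genome. Obox5 stood at 8.87, 11.1, 11.4 and 7.09 CPM against 2.10, 4.13, 5.21 and 1.15 CPM, with no overlap (change -1.45, SE 0.20, limma adjusted p = 1.92e-05). Obox3, Obox1 and Obox2 changed by -1.42, -1.13 and -1.06, each without overlap, and the Obox1 change was -0.97 without 8-cell replicate D and the Obox2 changes -0.75 and -0.81 without 4-cell replicate D or 8-cell replicate D. Tmem92 and Usp17lb changed by -1.25 and -1.20 with overlapping groups; Usp17lb lost its call without 4-cell replicate A (-0.98), 4-cell replicate B (-1.04) or 8-cell replicate C (-1.03). Zscan4d, the best known marker of the burst, was at 1223 CPM at the 2-cell stage, 4.14 at the 4-cell stage and 1.54 at the 8-cell stage, and its change was not called (-0.99, limma adjusted p = 0.0545).

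Several of the largest falls belonged to genes outside the lists. B020004C17Rik, an unnamed transcript, was at or near 0 up to the zygote, at 1431 CPM at the 2-cell stage, and at 165, 44.8, 198 and 156 CPM in the 4-cell libraries against 33.9, 22.6, 22.7 and 27.3 CPM in the 8-cell libraries (change -2.19, SE 0.30, limma adjusted p = 2.07e-05). The groups were separate, with 4-cell replicate B closest to the 8-cell values. Accsl, a gene of oocytes, went from 13.8 ± 2.97 to 4.17 ± 2.61 CPM (SD, n = 4; change -1.65), and Pramel51 from 11.1 ± 4.02 to 2.52 ± 1.28 CPM (change -1.80). Pramel17 changed by -1.60. Frg2f1 changed by -1.80 (limma adjusted p = 1.72e-05), from 5.04 to 12.1 CPM down to 1.33 to 1.83 CPM.

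Further genes outside the lists had large falls. Cnnm2, a magnesium transporter, stood at 47.3, 56.8, 49.6 and 40.9 CPM against 14.8, 10.96, 9.31 and 18.1 CPM (change -1.83, SE 0.22, limma adjusted p = 8.34e-06), the groups being separate. Slc26a2, a sulfate transporter, changed by -1.78 and Serpini1, a serine protease inhibitor, by -2.01, from 1.61 to 8.51 CPM down to 0.221 to 0.289 CPM. Cmtm8 and Tuba3b, an alpha-tubulin, both changed by -1.69. Pogz, a chromatin regulator, is called because of 1 library: it stood at 20.4, 299, 26.0 and 19.2 CPM against 16.3, 9.27, 17.5 and 11.7 CPM, and without 4-cell replicate B its change was -0.67. It also lost its call without 8-cell replicate B (-1.44). Among abundant nuclear genes, Xpo1, the main exporter of proteins from the nucleus, stood at 363 to 648 CPM against 192 to 359 CPM (change -1.05, limma adjusted p = 0.00293), and Rbbp6, a ubiquitin ligase that acts in pre-mRNA processing, at 248 to 344 CPM against 110 to 159 CPM (change -1.07, 0.00105). Both had separate values, and both fell under a change of 1 without some single libraries, to at most -0.90 for Xpo1 (8-cell replicate A) and -0.96 for Rbbp6 (4-cell replicate A).

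**Figure D3:**
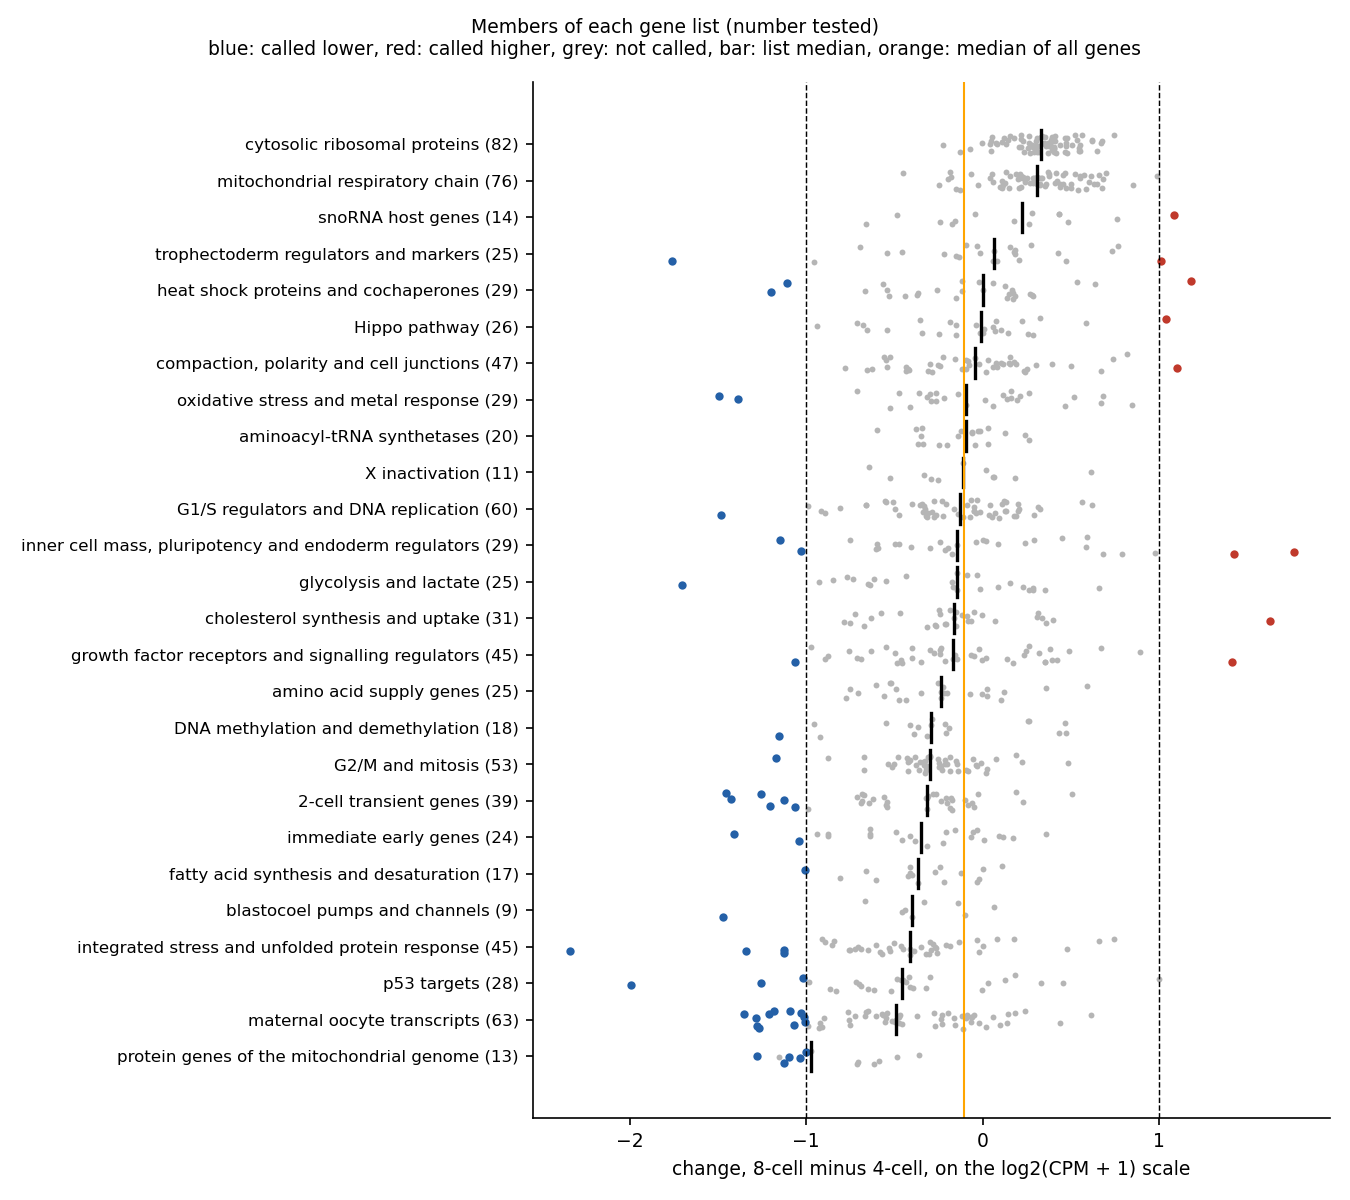
Change of each tested member of 25 gene lists and of the added list of mitochondrial genome genes, sorted by list median (black bars), with the number of members in brackets. Blue and red points are genes called lower and higher, the orange line is the median of all genes at -0.11, and lists of ribosomal proteins and the nuclear respiratory chain lie to its right without a called member.

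Regulators of the first lineages moved in both directions. Of 29 genes of the inner cell mass, pluripotency and primitive endoderm, 2 were called higher and 2 lower. Tfcp2l1, a transcription factor of naive pluripotency, stood at 12.4, 13.1, 12.8 and 4.71 CPM against 42.9, 23.4, 38.0 and 17.3 CPM (change 1.42, SE 0.26, limma adjusted p = 0.000833), with no overlap and the call kept under all 22 alternatives. Gdf3, a ligand of the TGF-beta family, stood at 0.671, 2.33, 3.32 and 0.506 CPM against 4.48, 10.2, 13.0 and 4.56 CPM (change 1.76, SE 0.29, limma adjusted p = 0.00022). Its groups were separate as well. Both genes were higher still in morulae, at 186 and 36.6 CPM.

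Fgf4, the growth factor through which the inner cell mass signals to its neighbours, fell from 21.4, 18.5, 21.3 and 16.4 CPM to 5.26, 9.41, 10.1 and 8.77 CPM (change -1.15, SE 0.22, limma adjusted p = 0.00134; -0.96 without 8-cell replicate A). Klf17, a Krüppel-like factor that oocytes also hold, fell from 240, 244, 179 and 121 CPM to 89.5, 104, 71.0 and 107 CPM (change -1.03, 0.00535; between -0.92 and -0.91 without 4-cell replicate A, 4-cell replicate B or 8-cell replicate C). Both genes had separate values, with the lowest 4-cell value of Klf17 only slightly above the highest 8-cell value. Gata6, the driver of primitive endoderm, stood at 24.7 to 41.5 CPM against 44.8 to 79.9 CPM without overlap and missed the fold threshold (change 0.98, limma adjusted p = 0.00517). Tbx3 changed by 0.79 (0.0303). The core factors Nanog, Pou5f1 and Sox2 were not called, with changes of -0.21 (0.707), 0.58 (0.12) and 0.02 (1.0), and Sox2 was under 1 CPM in each of the 8 libraries.

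Of 25 trophectoderm genes, 1 was called higher and 1 lower. Cdx2, the factor that specifies trophectoderm, was listed at 0, 0.411, 0.107 and 0 CPM in 4-cell and at 5.31, 0.947, 1.08 and 0 CPM in 8-cell libraries (change 1.01, SE 0.31, limma adjusted p = 0.0335). The groups overlapped, as 8-cell replicate D had no read, and the change was 0.51 without 8-cell replicate A. It was 0.95, 1.00 and 0.95 without 4-cell replicates A, C or D and 1.05 without 8-cell replicate C, and not called in these 4 fits either. In blastocysts Cdx2 had a mean of 92.5 CPM. Id2, an inhibitor of basic helix-loop-helix factors that later marks trophectoderm, fell from 14.8, 13.5, 4.13 and 22.5 CPM to 2.55, 3.18, 3.79 and 1.96 CPM (change -1.76, SE 0.29, limma adjusted p = 0.00022). Its values were separate by a narrow margin, between 4-cell replicate C and 8-cell replicate C, and it was at 173 CPM in blastocysts. Gata3 (0.47), Tead4 (0.32), Yap1 (0.07), Tfap2c (-0.03) and Klf5 (0.18) were not called, with limma adjusted p from 0.238 to 0.961, and the sign of Tfap2c turned under TMM scaling (0.13).

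Of 47 genes of compaction, polarity and cell junctions, 1 was called higher and 0 lower, with a median change of -0.05. Cldn4, a tight junction protein, stood at 5.93, 3.91, 3.64 and 5.37 CPM against 17.1, 6.77, 14.0 and 9.06 CPM (change 1.10, SE 0.26, limma adjusted p = 0.00672), without overlap. Its change was 0.90 and 0.99 without 8-cell replicates A or C. Cdh1, the E-cadherin that holds compacting cells together, was not called (change -0.09, limma adjusted p = 0.843), and its sign turned under TMM scaling (0.065). Its partner Ctnnb1, beta-catenin, stood at 36.4 to 47.6 CPM against 21.4 to 34.2 CPM without overlap (change -0.78, 0.00271), and Pard6b, an apical polarity protein, at 3.24 to 6.72 CPM against 5.60 to 16.1 CPM (change 0.82, 0.0451). Vgll4, a cofactor that competes with YAP for TEAD factors, was the 1 called gene of 26 in the Hippo pathway, which reads cell position. It stood at 13.5, 27.6, 13.8 and 29.2 CPM against 40.6, 41.3, 51.6 and 34.9 CPM (change 1.04, SE 0.24, limma adjusted p = 0.00522), with no overlap, and at 0.87, 0.88 and 0.94 without 4-cell replicate A, 4-cell replicate C or 8-cell replicate C. Ajuba, a scaffold of the same pathway, changed by -0.94 (0.0215).

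Among 45 growth factor receptors and signalling regulators, 1 rose and 1 fell. Dusp6, a phosphatase of ERK kept up by FGF signalling, stood at 1.39, 6.10, 3.32 and 6.73 CPM against 10.5, 17.5, 15.8 and 6.98 CPM (change 1.41, SE 0.32, limma adjusted p = 0.00487), the groups being separate by the narrow gap between replicates D. Smad1, a transducer of BMP signals, changed by -1.06 (0.00588), and by -0.93 and -0.97 without 4-cell replicate C or 8-cell replicate D. Of 9 pump and channel genes that later inflate the blastocyst cavity, Atp1b1, the beta subunit of the sodium pump, was called lower. It stood at 6.14, 4.59, 10.6 and 10.7 CPM against 2.71, 2.91, 1.85 and 1.21 CPM (change -1.47, SE 0.28, limma adjusted p = 0.00117), without overlap, and at 34.8 CPM in blastocysts.

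In lipid metabolism 1 gene of cholesterol handling rose and 1 of fatty acid synthesis fell. Stard4, which carries cholesterol between membranes and is a known target of the sterol-sensing factor SREBP2, stood at 10.9, 13.8, 13.9 and 13.4 CPM in 4-cell and at 40.1, 39.7, 52.4 and 37.3 CPM in 8-cell libraries. The groups were far apart, with means of 13.0 ± 1.42 against 42.3 ± 6.79 CPM (SD, n = 4). By limma the change was 1.62 (SE 0.21) at an adjusted p of 1.33e-05, and the call held under all 22 alternatives. Stard4 was the 1 called gene among 31 of cholesterol synthesis and uptake, of which 24 had a change below 0 (median -0.16, and -0.016 under TMM scaling). Acat2, which makes the first building block of the pathway, stood at 61.8 to 67.0 CPM against 30.9 to 40.6 CPM without overlap (change -0.78, limma adjusted p = 0.00845). Insig1, another sterol-regulated gene, changed by -0.75 (0.0314) and Hsd17b7 by -0.67 (0.053). A sterol regulatory element, spelled TCACNCCAC, was in 1.24% of all promoter windows and in 1 of the 22 list members with a window. Of 17 genes of fatty acid synthesis, Scd2, a desaturase, was called lower (change -1.01, limma adjusted p = 0.0481). The groups overlapped, and the call was lost without 4-cell replicate A (-0.76), 4-cell replicate C (-0.90) or 8-cell replicates B (-0.87), C (-0.84) or D (-0.9991).

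Of 25 genes of glycolysis and lactate handling, 1 was called. Ldha, a subunit of lactate dehydrogenase, stood at 6.91, 7.41, 7.93 and 6.68 CPM against 0.941, 1.35, 1.64 and 2.37 CPM, a 4.59-fold difference of the means with narrow spread in both stages (change -1.70, SE 0.22, limma adjusted p = 1.64e-05). It was at 31.6 CPM at the 2-cell stage, and at 8.12 and 18.6 CPM in morulae and blastocysts. Slc16a1, a lactate and pyruvate transporter, stood at 14.8 to 16.02 CPM against 4.26 to 13.4 CPM without overlap and missed the fold threshold (change -0.93, limma adjusted p = 0.00938). Of 29 genes of the oxidative and metal response, the detoxifying enzyme Nqo1 and the glutathione synthesis enzyme Gclc were called lower (changes -1.49 and -1.39), and 0 higher. Gclc stood at 5.88 to 10.9 CPM against 1.77 to 2.76 CPM. The metallothioneins Mt1 and Mt2, which bind zinc and copper, went the other way without being called. Mt1 stood at 3018 to 3862 CPM against 4500 to 6263 CPM without overlap (change 0.67, 0.0133), and Mt2 changed by 0.85 (0.00682).

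Few cell cycle genes were called. Of 53 genes of G2 and mitosis, 1 was called lower and 47 had a change below 0 (median -0.30, and -0.14 under TMM scaling). By the limma adjusted p alone, 7 of the 53 were lower and 0 higher. Of 60 genes of G1, S phase and replication, 8 were lower and 2 higher by the same measure. Among all genes 7.36% were lower and 2.25% higher. Mki67, which coats mitotic chromosomes, stood at 166, 124, 194 and 160 CPM against 85.3, 63.9, 67.7 and 65.3 CPM, the groups being far apart (change -1.17, SE 0.19, limma adjusted p = 0.000202). Kif2c, a kinesin of the kinetochore, changed by -0.87 (0.00163). Of 60 genes of G1, S phase and replication, the inhibitor Cdkn1c was called lower (change -1.48, 0.00117), from 3.40 to 12.7 CPM down to 1.16 to 2.14 CPM, and E2f2 was not (-0.99, 0.0111). Among 18 genes of DNA methylation, Uhrf2, a reader of modified cytosine, was called lower (change -1.15, 0.00247) with overlapping groups, and Zfp57, which protects imprints, was not (-0.96, 0.0104). Xist, the RNA that silences an X chromosome in female cells, had a change of 0.61 (0.234). Of 29 heat shock genes, Cryab, a small chaperone, was called higher (1.18) and Hspa14 and Hspa2 lower (-1.20 and -1.11), all 3 with overlapping groups. The Hspa14 row is identical to that of another symbol, Gm45902. The Cryab change was 0.92 and 0.97 without 8-cell replicates A or C, and Hspa2 lost its call without 4-cell replicates A, B or D (-1.06, -1.03 and -0.90) or 8-cell replicates A or C (-1.04 and -0.70). Of 14 host genes of small nucleolar RNAs, Snhg18 was called higher (1.08; 0.81 and 0.91 without 4-cell or 8-cell replicate D). No gene was called among 25 amino acid supply genes, 20 aminoacyl-tRNA synthetases and 11 genes of X inactivation; without the fold threshold, limma placed 2, 1 and 2 of them lower and 1, 0 and 0 higher.

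Several genes that rose had low levels at the 4-cell stage. Cbfa2t3, a transcriptional corepressor, stood at 0.258, 0.274, 0.0536 and 0 CPM against 5.86, 8.32, 4.09 and 0.519 CPM (change 2.05, SE 0.35, limma adjusted p = 0.000356). All 8-cell values were above all 4-cell values, that of replicate D narrowly. Dcxr, a carbonyl reductase, had at most 3 reads in each 4-cell library and 1.33, 2.64, 5.21 and 1.04 CPM in the 8-cell libraries, at least 15.2-fold higher, with 3 reads taken as the floor of each 4-cell library (limma adjusted p = 0.000938). Cmbl, a hydrolase, changed by 1.58 and Cacna1a, a calcium channel subunit, by 1.40. Rhox5, an X-linked homeobox gene, stood at 1.39, 0, 1.82 and 3.04 CPM against 5.26, 5.95, 4.22 and 6.002 CPM without overlap (change 1.47, SE 0.28, limma adjusted p = 0.00122). Tgif2, a repressor of TGF-beta targets, changed by 1.24, Ube2d-ps, a ubiquitin-conjugating pseudogene, by 1.44, and the unnamed transcripts Gm24336 and 1500026H17Rik by 1.29 and 1.20.

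Among abundant risers, Timm8a1, which ferries proteins across the space between the mitochondrial membranes, stood at 458, 379, 410 and 218 CPM against 818, 807, 793 and 567 CPM (change 1.06, SE 0.18, limma adjusted p = 0.000315). The values were separate, replicate D was lowest in both stages, and the change was 0.83 without 4-cell replicate D. Crip2, a LIM domain protein, stood at 46.5 to 64.3 CPM against 94.0 to 170 CPM (change 1.09; 1.00 and 0.93 without 4-cell or 8-cell replicate C), and reached 554 CPM in blastocysts. Vps29, a retromer subunit that sorts endosomal cargo, stood at 17.3 to 20.8 CPM against 37.2 to 49.0 CPM (change 1.06, SE 0.15; 0.98 without 8-cell replicate C). Rragd, a GTPase that links amino acids to mTORC1, overlapped between the stages (change 1.02, limma adjusted p = 0.0474) and lost its call without 4-cell replicates A or C (0.93 and 0.80) or 8-cell replicates B or C (0.81 and 0.76). Of 48 histone genes, a class counted after the values were seen, 3 were called higher and 0 lower, H2ac8 (1.21), H4c9 (1.20) and H2ac20 (1.16). Histone transcripts largely lack poly(A) tails, and H2ac8 stood at 4.69 and 5.63 CPM in 4-cell replicates A and C and at 20.0 to 31.2 CPM in the other 6 libraries. All 3 calls depended on single libraries. H4c9 lost its call without 4-cell replicate A (0.77), H2ac8 without 4-cell replicates A or C (0.87 and 0.94) or 8-cell replicates A, B or C (1.12 to 1.23), and H2ac20 without 4-cell replicates A or C (0.97 and 0.98) or 8-cell replicates A or D (1.07 and 1.05).

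Markers of other cells were checked for what the pools could hold. Of 6 tested cumulus and granulosa cell markers, Kitl and Serpine2 were called lower (changes -1.22 and -1.07) and 0 higher. The summed level of the 8 such markers with deposited values, tested or not, ran from 35.5 to 69.9 CPM in 4-cell and 23.0 to 39.4 CPM in 8-cell libraries. The defining markers Cyp19a1, Star and Fshr had means of 0.027, 0.148 and 0 CPM. Kitl lost its call without 4-cell replicates C or D (-1.14 and -1.05) or 8-cell replicates C or D (-1.18 and -0.81), and Serpine2 without replicates B or D of the 4-cell (-0.96 and -0.62) or the 8-cell stage (-0.99 and -0.83). Of 3 tested sperm markers, 0 were called, and the 5 with deposited values had a summed level of 26.9 to 41.3 CPM against 17.3 to 34.9 CPM. Of 12 blood and fibroblast markers, 2 were tested and both were lower. Hba-a1, an alpha-globin gene with a near-identical copy, stood at 36.1, 73.7, 159 and 53.2 CPM against 35.6, 22.6, 20.5 and 21.2 CPM (change -1.46, limma adjusted p = 0.000907), and was listed at 0 in all 12 libraries from GV oocyte to zygote. The macrophage marker Cd68 changed by -1.18 (-0.96 without 8-cell replicate A). The part of these markers in the results above was not tested.

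Read against the other stages, the genes that fell had mixed histories. Their 4-cell and 8-cell values chose them, so the places of these 2 stages are set by that choice, and the adjoining steps share libraries with it. Shares are set against the 8975 tested genes with a change below 0. Of the 314, 113 (36.0%, against 34.2%) had their highest stage mean in GV oocytes, MII oocytes or zygotes. Another 86 (27.4%, against 17.5%) were highest at the 2-cell stage, 65 (20.7%, against 20.7%) at the 4-cell stage and 48 (15.3%, against 23.5%) in blastocysts. In 71 (22.6%, against 17.1% of the 8975 tested genes with a change below 0) the mean declined at each step from the 2-cell stage to the morula. In 203 (64.6%, against 56.2% of the same genes) the morula mean was above the 8-cell mean. Hspa5 was higher again only in blastocysts, with means of 73.9 at the 2-cell stage, 213 at the 4-cell stage, 84.3 at the 8-cell stage, 66.9 in morulae and 335 CPM in blastocysts. Ddit3 had 65.9, 19.4, 3.25, 4.47 and 24.3 CPM at these stages. Of the 66 genes that rose, 33 were highest in blastocysts, against 35.0% of the 5344 tested genes with a change above 0, and 10 at the 8-cell stage. In 22 (33.3%, against 29.5% of those genes) the mean climbed at each step from the 2-cell stage to the morula.

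**Figure D4:**
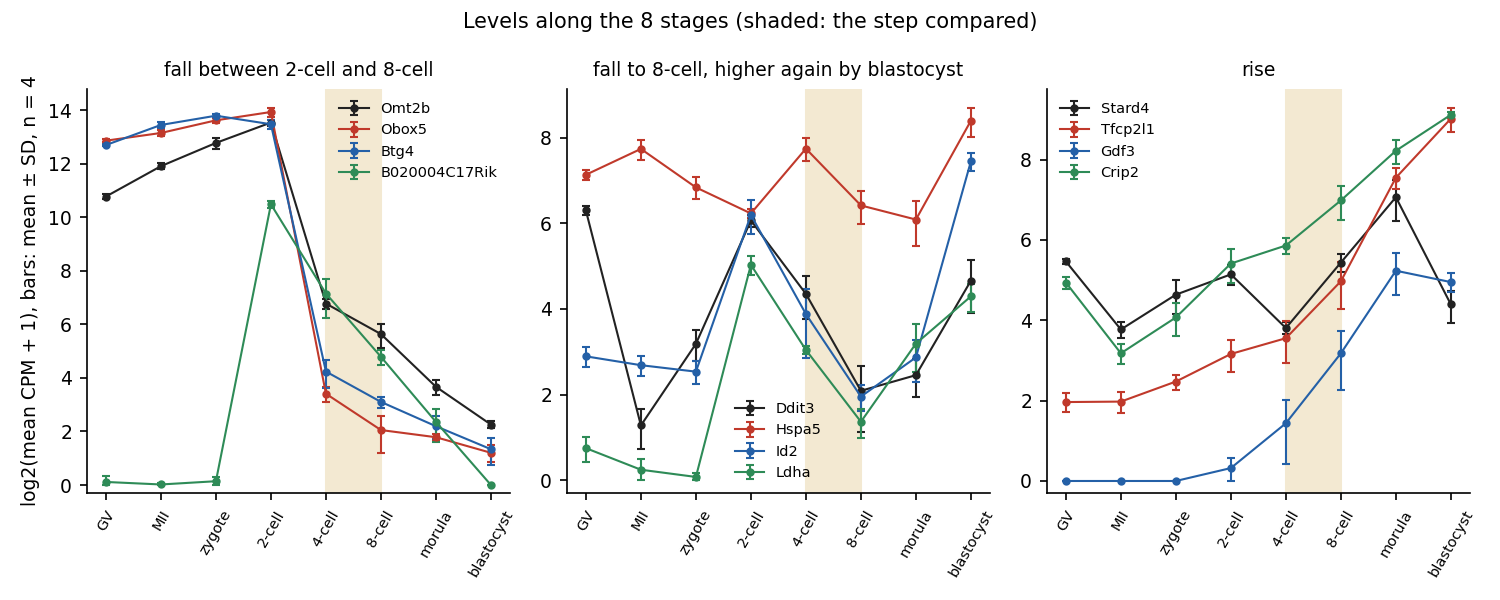
Mean level of 12 genes at the 8 stages as log2(mean CPM + 1), with bars for the mean ± SD of 4 libraries and shading over the step from the 4-cell to the 8-cell stage. Omt2b, Obox5, Btg4 and B020004C17Rik (left) drop steeply before the step and go on falling, Ddit3, Hspa5, Id2 and Ldha (middle) are higher again in blastocysts than at the 8-cell stage, and Tfcp2l1 and Crip2 (right) go on rising.

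The gradients give a second measurement of both stages in other pools of about 100 embryos, which per the series' design came from the same batch as the transcriptome pools. The value used is the mean CPM over the 10 fractions, averaged over 3 gradients per stage on the log2(CPM + 1) scale. It did not enter the choice of genes. Each fraction counted alike, although fractions held 0.141 to 21.6 M reads at the 4-cell stage and 0.184 to 30.2 M at the 8-cell stage. The part of depth in the gradient differences was not tested. Of the 66 genes called higher, 51 (77.3%) had a gradient difference above 0, against 56.1% of all genes tested, and in 18 (27.3%, against 8.97%) all 3 8-cell gradients were above all 3 4-cell gradients. Of the 314 called lower, 172 (54.8%) had a gradient difference below 0, against 40.6% of all genes, and in 17 (5.41%, against 5.07%) all 3 were lower.

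Among named genes, B020004C17Rik was at 434, 465 and 447 CPM in the 4-cell gradients and 27.5, 92.1 and 111 CPM in the 8-cell gradients, and Cnnm2 at 187, 126 and 232 against 34.7, 27.3 and 53.9 CPM. Both were separate, as were Fgf4 (51.3, 55.6 and 67.7 against 24.4, 24.6 and 31.1 CPM) and Omt2b (709, 1039 and 583 against 189, 301 and 477 CPM). Of the risers, Rhox5 was at 0.0777, 0.0490 and 0 against 5.60, 10.2 and 14.8 CPM, and Cdx2 at 1.66, 0.172 and 0.520 against 36.1, 14.4 and 2.29 CPM, so that the groups were separate for Cdx2 in the gradients and overlapped in the transcriptomes. Tfcp2l1, Gdf3 and Vgll4 were separate too, Vgll4 at 0.219, 0.361 and 0.0509 against 29.2, 14.2 and 16.4 CPM. Vgll4 was far higher in every 4-cell transcriptome than in the 4-cell gradients, so the size of its rise differed between the 2 measurements.

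Others did not recur. Ddit3 was at 0.0744, 6.97 and 37.0 CPM in the 4-cell gradients and 3.71, 2.47 and 5.52 CPM in the 8-cell gradients, and Ldha, lower in every 8-cell transcriptome, was at 4.16, 39.7 and 4.51 against 47.2, 11.6 and 68.4 CPM. Hspa5 ran from 17.4 to 204 CPM against 5.87 to 30.9 CPM. All 3 overlapped, with wide spread between gradients of a stage. The mitochondrial genome genes summed to 16005, 17597 and 16646 CPM in the 4-cell gradients and 15775, 33573 and 20079 CPM in the 8-cell gradients, so they were not lower there. The ribosomal protein genes summed to between 62685 and 74131 CPM against between 83914 and 108374 CPM, without overlap, as in the transcriptomes.

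**Figure D5:**
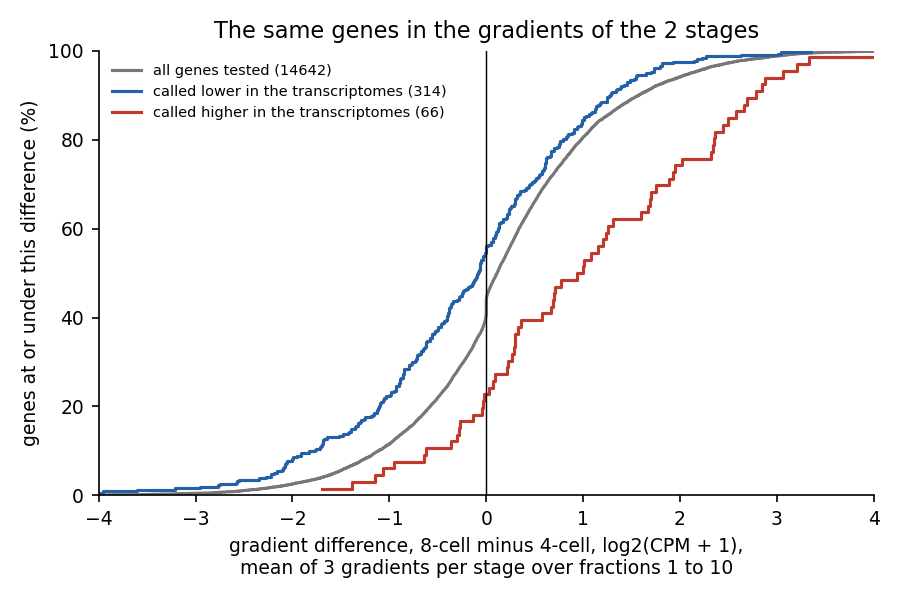
Cumulative share of genes (vertical axis, percent) by their 8-cell minus 4-cell difference in the gradients (horizontal axis, log2(CPM + 1), mean of 3 gradients per stage), for all 14642 genes tested (grey), the 314 called lower (blue) and the 66 called higher (red) in the transcriptomes. The red line lies furthest right, with 22.7% of its genes below 0, against 54.8% of the blue and 40.6% of the grey line; the axis is limited to differences between -4 and 4.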

How the data were processed

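Per the file name, the authors deposited CPM values, 15854 symbols by 272 libraries. Per the submitters' processing notes, Trim Galore 0.6.7, FastQC, HISAT2 2.2.1, featureCounts 2.0.1, edgeR and build GRCm39 were used, with no role or order given. The deposited values of 9 other libraries were recorded as a signal, since the repeated rows lift their sums over 1 M, and are otherwise scaled by the authors alike. In 76 groups of rows with identical values 1 row was kept, which left 15771. The values were whole multiples of 1 read (100%, tolerance 0.05 reads), so depths are recovered reads; intervals from such reads would cover counting error only. The main test was limma on log2(CPM + 1) (lmFit, eBayes with trend), two-sided with Benjamini-Hochberg adjustment, fitted over all 32 transcriptome libraries, for genes at CPM of at least 1 in at least 4 of them. On simulated data of 14642 genes this fit called 91.0% of changed genes at a log2 fold of 1.5 and 98.5% at 2. It also called 0.346% of 14442 unchanged genes. The changed genes numbered 67 at each of these folds and 66 at 3, so false calls exceeded 0.05 of this fit's calls. With the 8 libraries alone the shares were 59.7%, 85.1% and 0.0346%, and false calls stayed under 0.05 of the calls. All changed genes were drawn from those with a mean of at least 10 CPM, so the shares do not cover changes of lower genes. Alternatives covered pseudocount, filter, scaling, libraries, edgeR and DESeq2 on recovered reads, and the replicate letter as a block.

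Members and gene lists were chosen with earlier results of these data known. Named were the 15 largest rises and falls with separate values, the 5 most abundant called genes in each direction, the called members and up to 4 others of each list, and well-known genes of the stage, except 1 gene that is not reported here; the list of mitochondrial genome genes, the histone class and the genes with the stress element were added after their values were seen. Promoters are from RefSeq (GRCm38.p6), transcript lengths from the RefSeq gene table. The 8 libraries agreed less closely than sampling noise allows (lowest chi-square per degree of freedom 30.5 over 12 pairs), so each counts once.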

Additional observations from a re-analysis of the deposited data

Results flagged for a closer look

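The 138 genes examined gave 276 groups of 4 libraries, and in 20 of them the highest or lowest library stood so far from the other 3 that its gap, as a share of the group's range, passed Dixon's 95% limit for 4 values. Chance alone gives about 1 in 20 such groups.

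In 4-cell embryos, replicate B was far above the others for Pogz (299 CPM), Bcl2l10 (9.81 CPM), Tbx3 (74.7 CPM) and Sox2 (0.960 CPM). Replicate D was far above for Pmaip1 (8.05 CPM) and Obox2 (7.39 CPM) and far below for Tmem92 (2.43 CPM) and Tfcp2l1 (4.71 CPM). Replicate A was far below for Nr4a2 (5.62 CPM) and Ndufa3 (33.5 CPM) and far above for Rbbp6 (344 CPM). Replicate C was far above for Acat2 (67.0 CPM) and far below for Kif2c (137 CPM).

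In 8-cell embryos, replicate B was far above the others for Ctnnb1 (34.2 CPM) and Uhrf2 (16.2 CPM), and replicate D was far above for Zfp57 (15.5 CPM) and Zfp318 (6.29 CPM) and far below for Timm8a1 (567 CPM). Replicate C was far above for Smad1 (3.45 CPM) and replicate A for Hba-a1 (35.6 CPM). No library was the far value in more than 4 of the 20.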

How the results depend on the processing

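Calls in total, higher and lower, 380, 66 and 314 as reported, were 147, 21 and 126 with the 8 libraries alone. They were 638, 107 and 531 with a pseudocount of 0.1, and 45, 7 and 38 with 5. A larger pseudocount shrinks the changes of genes with low values, while the fold threshold stayed the same. They were 269, 134 and 135 under quantile normalization, and 273, 116 and 157 under TMM scaling. On recovered reads, edgeR gave 577, 192 and 385, edgeR with the 8 libraries alone (added after seeing the data) 100, 39 and 61, and DESeq2 885, 319 and 566. Without the fold threshold they were 1407, 329 and 1078. Other causes of these differences were not tested. Leaving out 1 library gave 385 to 467 calls, 56 to 114 higher and 329 to 366 lower; the higher calls passed 1.5 times the count reported without 4-cell replicate B (106) and 8-cell replicate D (114). Genes with separate values numbered 1950 to 2320 with 1 library left out, most without 4-cell replicate B. Other filters changed no count by 1.5 times. Of the 380 called genes, 26 were called under every alternative and 122 in every fit with 1 library left out; of the 97 called genes described, 17 and 51 were.

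Samples of the 2 stages share replicate letters, and the correlations of their deviations were 0.073, 0.059, 0.048 and 0.102 for A to D, not all over 0.1, so the letters were not taken to pair them; each sample did correlate best with its own letter, a hint from the data. With a replicate block the calls were 379 (28 libraries), and 198, 35 higher and 163 lower, with the 8 libraries.

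Signs turned for 4 genes with changes near 0. Sox2 was at -0.0016 with a pseudocount of 5 and between -0.093 and 0.23 with 1 library left out, and Yap1 between -0.0028 and 0.17. Tfap2c was at 0.086 under quantile normalization, 0.13 under TMM scaling, 0.13 and 0.097 with edgeR (32 and 8 libraries), 0.14 with DESeq2, and between -0.13 and 0.024 with 1 library left out. Cdh1 was at 0.049, 0.065, 0.072 and 0.042, 0.084, and between -0.24 and 0.046 in the same settings.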

Other observations

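Outside the lists, several regulators of later embryos were called higher. They were picked after their values were seen. Epas1, a hypoxia-inducible factor, stood at 7.84, 14.4, 8.36 and 5.92 CPM in 4-cell and 27.5, 15.9, 42.7 and 9.41 CPM in 8-cell libraries (change 1.16, SE 0.29, limma adjusted p = 0.00958). Its groups overlapped, and its change was 0.82 without 8-cell replicate C and 0.9968 without 4-cell replicate D. Tbx20, a T-box factor known from the heart, stood at 4.46 to 10.2 CPM against 11.95 to 26.2 CPM without overlap (change 1.17, 0.00137; 0.95 without 8-cell replicate B). Rarb, a retinoic acid receptor, changed by 1.17 (0.0147) without overlap, and by 0.85 and 0.89 without 4-cell replicate A or 8-cell replicate C. Gsc, the homeobox gene of the gastrula organizer, changed by 1.13 (0.0333) with overlap and lost its call in 5 of the 8 fits that left out 1 library. Gata6os, annotated antisense to Gata6, stood at 1.44, 2.67, 0.107 and 1.01 CPM against 4.48, 6.43, 10.9 and 2.19 CPM (change 1.57, SE 0.31, limma adjusted p = 0.00174). Whether counting used strand is not given in the sources used here, so its reads cannot be told apart from those of Gata6. Magea13, an X-linked gene of the MAGE family, changed by 1.86 (0.00307), with 4-cell replicate A at 12.6 CPM above 8-cell replicate A at 7.36 CPM.

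Zinc finger genes with a Zfp symbol leaned the other way: of 333 tested, 14 were called lower and 1 higher, with a median change of -0.28. Zfp318, Zfp623 and Zfp948 had changes of -1.48, -1.44 and -1.31 with separate values, and Zfp971 was the 1 called higher (1.16); it lost its call without 4-cell replicates A or D (1.06 and 1.03) or 8-cell replicates B or C (0.93 and 1.05). The share called lower among all genes was 2.14%.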
